A study of Drosophila mojavensis with 127 samples.

Results

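The transcripts described here were those whose level differed most between host cacti in males of the Punta Onah population of the fly Drosophila mojavensis. Levels were log2 expression values from microarrays, averaged within each group of flies, and the host difference H was the mean of the mated and nonmated Punta Onah male groups raised on organ pipe cactus minus the mean of those raised on agria cactus. Among transcripts whose Punta Onah level lay within 0.5 of the other populations and whose male level lay within 3 of the female level, the 60 with the highest H formed the higher list and the 60 with the lowest H the lower list. The 120 members came from 14528 transcripts, of which 12943 met both limits. All identifiers were transcript numbers, and 0 of them matched the gene table of the species used here, so members are given by identifier without gene names or functions.

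Drosophila mojavensis lives on columnar cacti of the Sonoran Desert, where adults feed, mate and lay eggs in pockets of rotting tissue and larvae eat the yeasts and bacteria that grow there. Host species differ in their chemistry, including triterpene glycosides, lipids and sugars, and in the microbes they carry. Mainland populations breed chiefly in organ pipe cactus and those of Baja California in pitaya agria, and the cactus on which the larvae grow up is known to alter the cuticular hydrocarbons and mating behaviour of the adults.

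Wild-type flies from 4 populations were compared, Punta Onah in Sonora, Organ Pipe National Monument in Arizona, and Punta Prieta and San Quintin in Baja California, each represented by 1 source. Flies of both sexes, mated or nonmated, were raised on fermenting agria (Stenocereus gummosus) or organ pipe cactus (Stenocereus thurberi), which made 32 groups. The 127 single-colour arrays counted as 123 replicates, 3 or 4 per group, after 4 pairs that shared a replicate number had been averaged. Punta Onah supplied 16 male and 16 female arrays, 4 in each group. The labels did not state the tissue, and in total RNA fewer cells of a type and less RNA per cell cannot be told apart.

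Values on the arrays lay between 4.64 and 15.78, and array medians between 10.15 and 10.64. Across transcripts, the mean correlation of an array with its own group was 0.893 to 0.995, and under 0.93 for 4 arrays. The labelled sex was checked with the 200 most female-biased and the 200 most male-biased transcripts of the other 3 populations, members left out. The female-biased transcripts averaged 8.33 to 8.91 in Punta Onah males and 12.00 to 12.61 in Punta Onah females. Among males of the other populations 2 arrays lay between the sexes on this measure, and each result with a test was also computed without them.

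Within the higher list, H ran from 1.06 to 2.16 with a median of 1.20, and within the lower list from -1.76 to -1.17 with a median of -1.22. Rank 60 from the top was FBtr0173773 at 1.0576 and rank 61 was FBtr0162568 at 1.0482; at the other end FBtr0172720 had -1.1703 and FBtr0174481 had -1.1702, so the lists end in a continuous range. All 120 members passed the test of host in Punta Onah males with limma, where 16.7% of all transcripts were higher and 20.2% lower on organ pipe. The members were chosen on this contrast, so nothing is read from that count.

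FBtr0162064 had the highest H, 2.16 or 4.46-fold. On agria it measured 5.65, 6.85, 6.54 and 6.76 in mated Punta Onah males and 5.48, 6.11, 5.98 and 6.47 in nonmated ones. On organ pipe it measured 6.55, 7.35, 7.21 and 8.09 in mated males and 9.41, 9.67, 9.40 and 9.43 in nonmated males. The 4 nonmated organ pipe arrays stood well above the other 12, while mated organ pipe arrays overlapped those on agria. Its agria levels were close to the bottom of the arrays' range, where a fold can be understated.

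FBtr0162000 followed with H of 1.95, or 3.86-fold. Its levels on agria were 9.30, 9.55, 9.93 and 10.43 in mated males and 9.32, 9.22, 9.05 and 8.74 in nonmated males. On organ pipe they were 9.90, 10.33, 10.64 and 10.62 in mated males and 12.37, 12.16, 12.63 and 12.46 in nonmated males. Again the nonmated males on organ pipe did not overlap any other Punta Onah male group.

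FBtr0166220 had the lowest H, -1.76, a 3.38-fold lower level on organ pipe. It measured 12.07, 10.88, 11.44 and 11.81 in mated and 12.13, 11.99, 12.57 and 11.55 in nonmated males on agria. On organ pipe the values were 10.63, 11.32, 9.78 and 10.31 in mated males and 9.06, 9.83, 9.25 and 10.21 in nonmated males. Mated males of the 2 hosts overlapped only through the arrays at 10.88 on agria and 11.32 on organ pipe, and nonmated males did not overlap.

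FBtr0163387 was next, with H of -1.62, or 3.07-fold. Mated males on agria had 12.01, 10.61, 10.90 and 11.30, and nonmated males 11.91, 11.43, 11.77 and 11.16. Mated males on organ pipe had 10.42, 10.96, 9.68 and 10.09, and nonmated males 8.81, 9.44, 8.73 and 10.03. In the plot of these 4 members over all male arrays, the Punta Onah groups spread much further apart than the groups of any other population for the members of the higher list, and less clearly so for those of the lower list. H picked these 4 members for a large difference among the Punta Onah male groups, so nothing is read from the wider spread there.

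**Figure D1:**
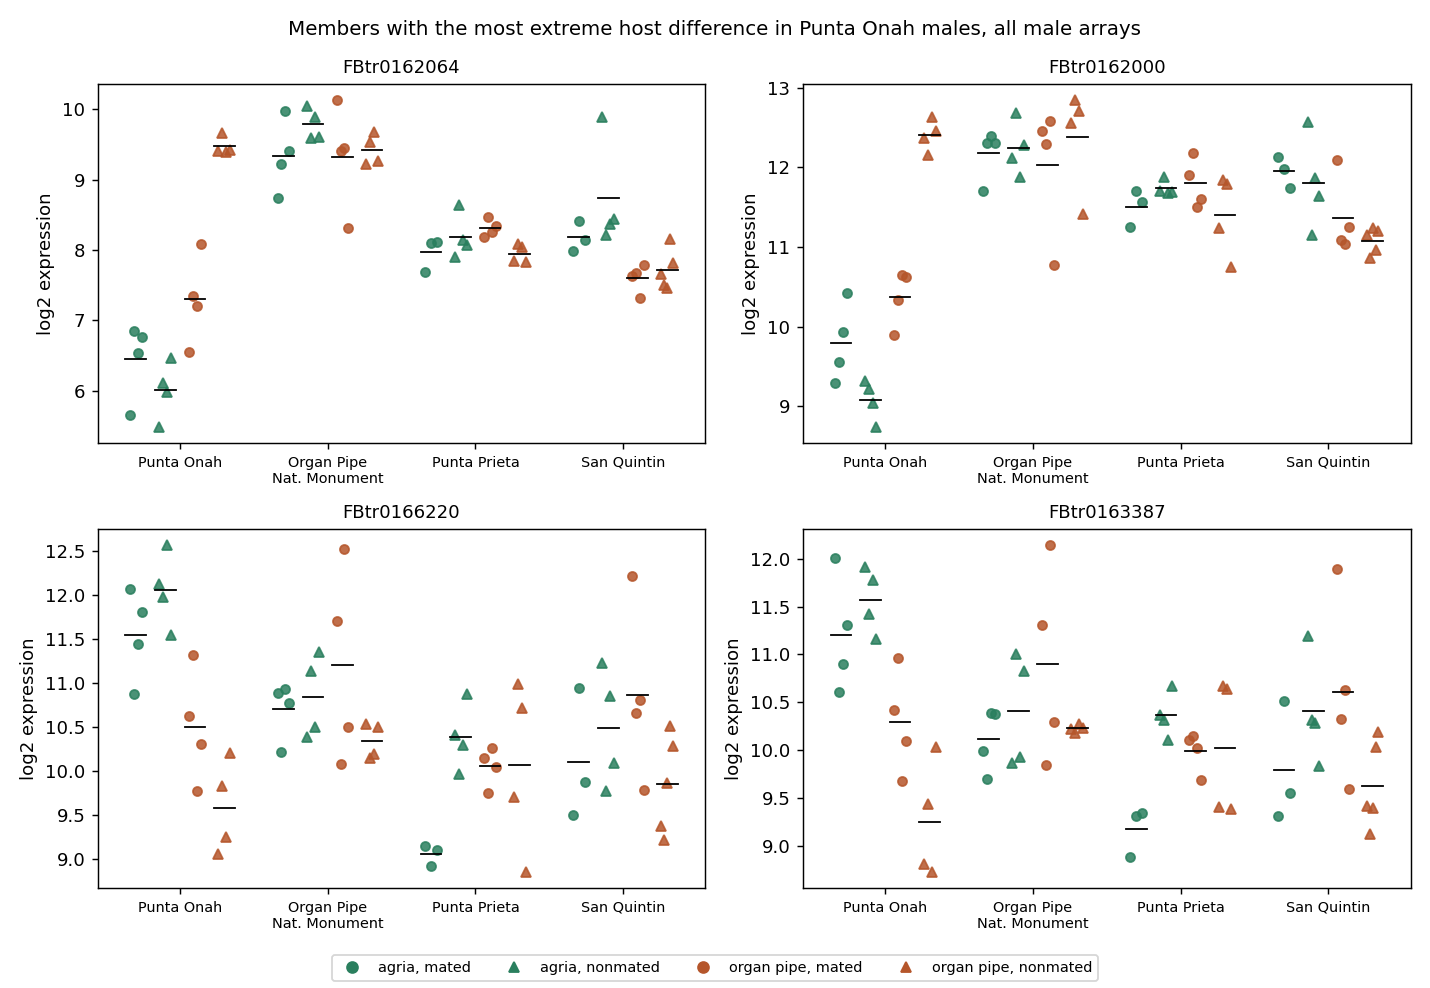
Log2 expression (vertical axis) of the 4 members with the most extreme H in every male array, by population (horizontal axis), host (colour) and mating status (symbol); points are arrays and bars group means. FBtr0162064 sat between 5.48 and 8.09 in the 3 Punta Onah groups other than nonmated males on organ pipe, which had 9.40 to 9.67.

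Averaged over each list, the same arrays stood out. The higher list averaged 7.94, 8.65, 8.74 and 8.71 in mated and 8.19, 8.27, 8.19 and 8.43 in nonmated males on agria. On organ pipe it averaged 8.61, 8.94, 9.32 and 9.54 in mated males and 10.25, 10.27, 10.03 and 10.40 in nonmated males. The 45 male replicates of the other populations ranged from 9.05 to 10.58 with a median of 9.78, so the agria males of Punta Onah lay below that entire range and the nonmated organ pipe males lay in its upper part.

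For the lower list, agria males averaged 10.09, 9.29, 9.44 and 9.76 when mated and 10.18, 10.29, 10.29 and 9.63 when nonmated. Organ pipe males averaged 9.13, 9.32, 8.52 and 8.67 when mated and 8.02, 8.47, 8.07 and 8.60 when nonmated. Males of the other populations ranged from 8.08 to 10.19 with a median of 8.81, a range that covered most of both host groups. Its upper end was replicate 3 of mated Organ Pipe National Monument males on organ pipe, whose mean correlation with its group was 0.909. The next highest replicate was at 9.65, and most agria males of Punta Onah lay above that. The SD between replicates of a list's mean was 0.22 for the higher and 0.31 for the lower list.

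**Figure D2:**
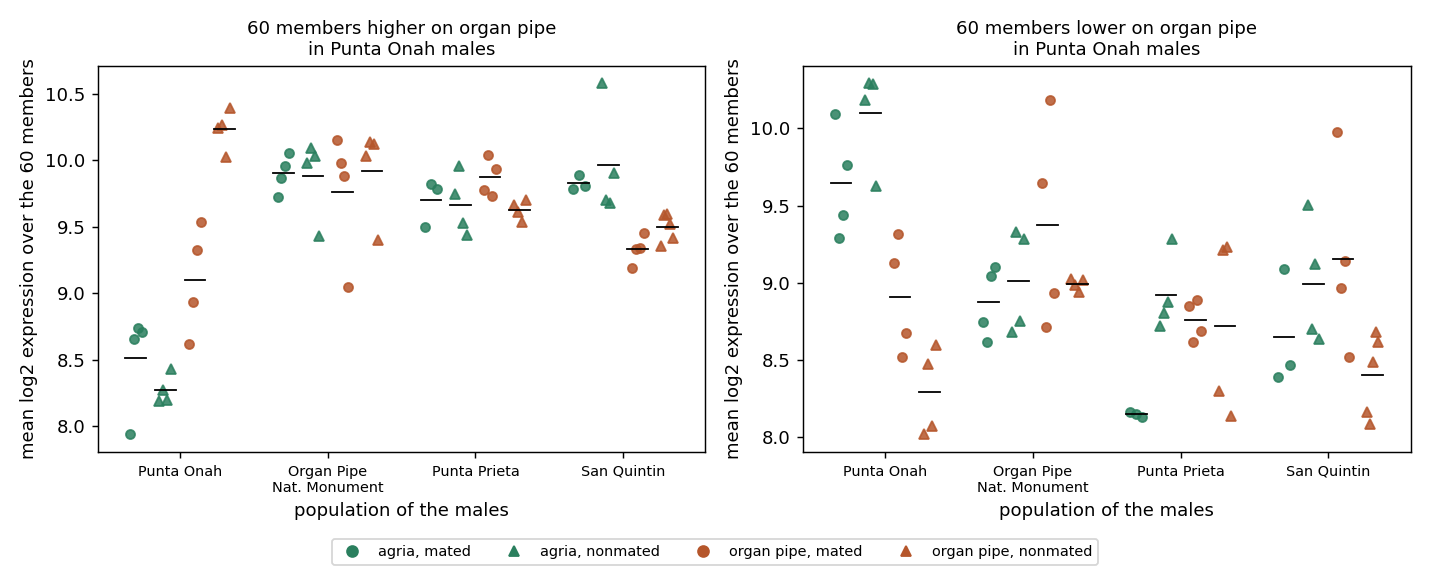
Mean log2 expression over the 60 members of each list (vertical axes) in every male array, by population (horizontal axis), host (colour) and mating status (symbol), with bars at group means. Agria males of Punta Onah had 7.94 to 8.74 in the higher list, below the 9.05 to 10.58 of males of the other populations, and 9.29 to 10.29 in the lower list.

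Member by member, each Punta Onah male group was set against the 12 male group means of the other populations. In the higher list 54 members of mated and 59 of nonmated agria males lay below all 12, as did 39 in mated males on organ pipe, whereas 0 of 60 did in nonmated males on organ pipe, where 30 lay above all 12. The median distance from the mean of the 12 groups was -1.21, -1.41, -0.68 and 0.48 in the same order. In the lower list 37 members of mated and 58 of nonmated agria males lay above all 12 groups. Mated males on organ pipe had 11 such members and a median distance of 0.09, and nonmated males had 10 members below all 12 and a median of -0.57. These counts describe the arrays that chose the members and were not tested.

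By their medians, members were dimmer and more variable than the transcripts within the limits. Their mean level had a median of 9.35 in the higher and 9.15 in the lower list against 10.57 over the 12943 transcripts within the limits. The third quartile of the higher list was 10.86, so part of that list was brighter than this median. The SD within groups of the other populations had medians of 0.386 and 0.436 against 0.276. A ranking by an extreme difference can favour variable transcripts, so nothing is read from these SDs. Sex differences (male minus female) in the higher list ran from -2.05 to 2.87, with 16 members below -1 and 10 above 1. The lower list was more uniform, with 54 of 60 members lower in males and a median of -0.39, against -0.30 within the limits.

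The level of the sex-biased transcripts differed among the Punta Onah male groups as well. The female-biased transcripts averaged 8.63 to 8.91 on agria, 8.60 to 8.84 in mated and 8.33 to 8.51 in nonmated males on organ pipe. The male-biased ones averaged 12.95 to 13.27, 13.06 to 13.36 and 13.34 to 13.47 in these groups. Their part in the host difference of the members was not tested.

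Mating status went with the size of the host difference in the arrays that chose the members. In the higher list the median organ pipe minus agria difference was 0.59 in mated and 1.87 in nonmated Punta Onah males, and it was larger in nonmated males for 60 of 60 members. In the lower list the medians were -0.67 and -1.84, and the difference was larger in nonmated males for 56 of 60. Over all transcripts the medians were 0.01 and -0.09, and 11038 of 14528 had the larger difference in nonmated males. The difference over all transcripts ran from -1.71 to 1.11 in mated and from -2.59 to 4.41 in nonmated males. H averaged the mated and nonmated differences, so its extremes favoured members with a large nonmated difference. The counts here and from the mating side below are therefore a description. The 4 members that went the other way were FBtr0169215, FBtr0175580, FBtr0167521 and FBtr0163173, all of the lower list and named after their values were seen. Their differences were -1.67, -1.71, -1.36 and -1.61 in mated against -1.10, -1.02, -1.07 and -0.75 in nonmated males.

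Seen from the mating side, the higher list had a median of 0.22 on agria (mated minus nonmated), with 49 of 60 members positive. On organ pipe the higher list was lower in mated males, with a median of -1.05 and 59 of 60 members negative. For the lower list the medians were -0.48 on agria, with 55 negative, and 0.64 on organ pipe, with 56 positive. Nonmated males on organ pipe were therefore the group furthest from the other Punta Onah males in the higher list. Over all transcripts the mean profile of that group correlated with the other Punta Onah male groups at 0.950 to 0.975, and those groups reached up to 0.991 among themselves. With the 12 male groups of the other populations, however, nonmated males on organ pipe correlated at 0.964 to 0.986. Mated males on organ pipe had 0.941 to 0.974 there, and agria males 0.932 to 0.962 when mated and 0.933 to 0.956 when nonmated.

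The dependence of the host difference on mating was tested as the mated minus the nonmated host difference. It uses the arrays that chose the members, in a contrast other than H, and is given as a description. With limma 40 members of the higher list had a negative value and 0 a positive one that passed, against 4.03% of all transcripts with a negative and 4.79% with a positive call. In the lower list 31 members were positive and 0 negative. The median was -1.26 in the higher list, 1.21 in the lower list and 0.08 over all transcripts. The total of 71 members, against 8.82% of all transcripts, fell to 24 without replicate 2 and 30 without replicate 3, and was 35 of 62 tested when the dimmest 25% of transcripts were left out.

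FBtr0167238 showed the contrast most clearly. It measured 8.95, 9.68, 9.55 and 9.76 in mated and 9.65, 9.69, 9.09 and 8.97 in nonmated males on agria, and 10.12, 9.65, 9.34 and 9.74 in mated males on organ pipe. Nonmated males on organ pipe had 12.38, 12.28, 12.55 and 12.65, above every other Punta Onah male array. Its host by mating value was -2.89 ± 0.33 (SE, n = 16 arrays, adjusted p = 1.51e-10 in limma), and FBtr0162000 had -2.75 ± 0.36 (SE, adjusted p = 2.09e-08 in limma).

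FBtr0162623 and FBtr0172754 had the most positive values, 1.81 ± 0.36 (SE, adjusted p = 0.000241) and 1.79 ± 0.54 (SE, adjusted p = 0.0221) in limma. FBtr0162623 measured 9.67, 8.16, 8.66 and 9.13 in mated and 9.80, 9.86, 10.69 and 8.85 in nonmated males on agria. On organ pipe it had 8.56, 9.01, 8.38 and 8.51 in mated and 7.14, 7.75, 7.95 and 7.96 in nonmated males. Mated males of the 2 hosts thus overlapped in this member, and nonmated males did not.

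**Figure D3:**
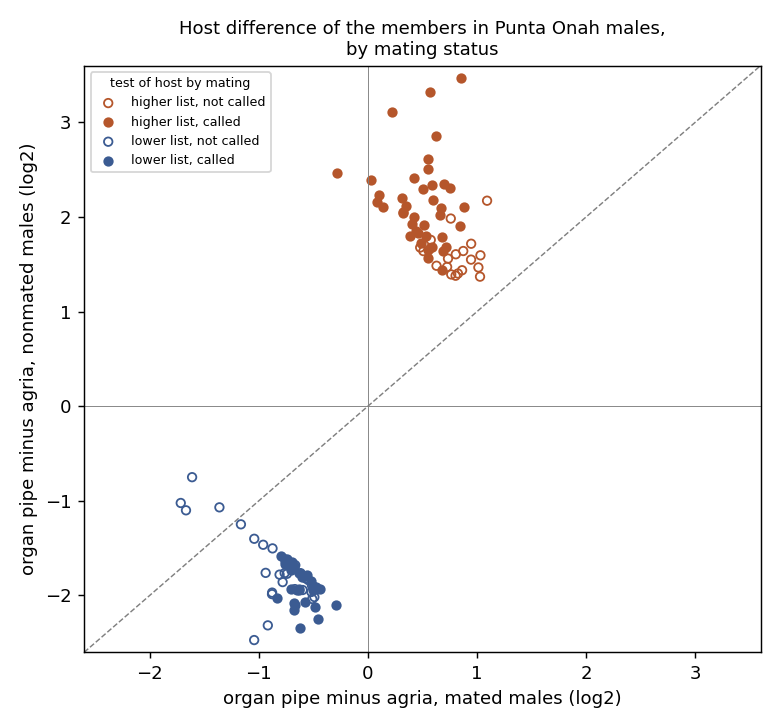
Host difference (organ pipe minus agria, log2) of each of the 120 members in nonmated (vertical axis) against mated (horizontal axis) Punta Onah males; filled points passed the limma test of host by mating and the dashed line marks equal differences. All 60 points of the higher list lie above the line, and 56 of 60 of the lower list lie below it.

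Averaged over hosts, mated Punta Onah males had lower levels than nonmated ones in part of the higher list. These are again the 16 arrays that chose the members, with the nonmated males on organ pipe high in both contrasts, so the calls are a description and support nothing about the members. With limma 22 members fell and 1 rose, against 2.48% and 4.3% of all transcripts, with a median of -0.45. In the lower list limma called 0 members, as it did with array weights, 5 had an unadjusted p under 0.05, and the median was 0.11. FBtr0167238 fell by 1.31 ± 0.16 (SE, adjusted p = 3.56e-09 in limma) and FBtr0172221 by 1.14 ± 0.19 (SE, adjusted p = 1.06e-05 in limma). The member that rose, FBtr0174421, had 9.65 ± 1.08 in nonmated and 10.64 ± 0.42 in mated males (SD, n = 8 each), a difference of 0.99 ± 0.21 (SE, adjusted p = 0.00102 in limma). The count of 23 was 9, 10 and 15 without replicates 1, 2 and 3, and 13 of 62 members tested without the dimmest transcripts.

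In flies other than Punta Onah males mating was accompanied by few calls among the members. Punta Onah females had 1, FBtr0163617 of the lower list, which rose by 1.25 ± 0.20 (SE, adjusted p = 4.99e-06 in limma). It ranged from 10.43 to 12.16 in mated females (median 11.50) and from 9.47 to 10.46 in nonmated females (median 10.29), against 0.895% of all transcripts that rose and 1.27% called in all. It also rose in females of the other populations, by 1.01 ± 0.12 (SE, adjusted p = 8.23e-11 in limma), where 2.08% of all transcripts rose and 2.87% fell (4.95% in all). FBtr0172351 of the higher list rose there too, by 0.53 ± 0.16 (SE, adjusted p = 0.033), and FBtr0175580 of the lower list fell by 0.74 ± 0.18 (SE, adjusted p = 0.00499 in limma). Of those 3 calls, 1 was left without replicate 1. In males of the other populations limma called 0 members, and 3 had an unadjusted p under 0.05, against 3.97% of all transcripts called, with 3.54% higher in mated males. Array weights gave 7 calls there, against 11.2% of all transcripts.

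The host difference of the members did not carry over to females of Punta Onah. There 109 of 120 members had the sign opposite to H. The higher list had a median of -0.21 with 53 of 60 members negative, and the lower list a median of 0.38 with 56 of 60 positive, against 0.04 over all transcripts with 58.0% positive. With limma 6 members of the higher list fell and 0 rose, and 6 of the lower list rose and 2 fell, against 0.95% of all transcripts that rose and 2.78% that fell (3.73% in all). The total of 14 became 9, 1, 1 and 0 without replicates 1, 2, 3 and 4, each with fewer samples, and 6 of 62 tested without the dimmest transcripts, whereas array weights gave 77 with 32.3% of all transcripts called. The medians ranged from -0.27 to -0.17 in the higher and from 0.28 to 0.52 in the lower list over these removals of a replicate number.

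The averages over the lists shifted in the same small way in those females. For the higher list, agria females ranged from 9.87 to 10.29 with a median of 10.05, and organ pipe females from 9.66 to 9.90 with a median of 9.75. For the lower list, agria females ranged from 8.95 to 9.83 (median 9.28) and organ pipe females from 9.41 to 9.76 (median 9.64). Both pairs of ranges overlapped, the first only at its edge.

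FBtr0164918 of the lower list rose in Punta Onah females by 0.70 ± 0.20 (SE, adjusted p = 0.0321 in limma). It ranged from 7.56 to 8.16 on organ pipe (median 7.88) and from 6.78 to 7.47 on agria (median 7.20), without overlap. FBtr0171624 rose by 0.59 ± 0.13 (SE, adjusted p = 0.00637), also without overlap, from 6.66 to 7.499 on agria and from 7.501 to 8.14 on organ pipe. FBtr0175580 fell by 1.31 ± 0.31 (SE, adjusted p = 0.00797), from 10.53 ± 0.52 to 9.22 ± 1.11, and FBtr0169008 by 1.17 ± 0.35 (SE, adjusted p = 0.0408), from 9.20 ± 0.46 to 8.03 ± 0.60 (SD, n = 8 each). FBtr0175580 thus had the same direction of host difference in both sexes of Punta Onah, and FBtr0169008, a member of the higher list, opposite ones.

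**Figure D4:**
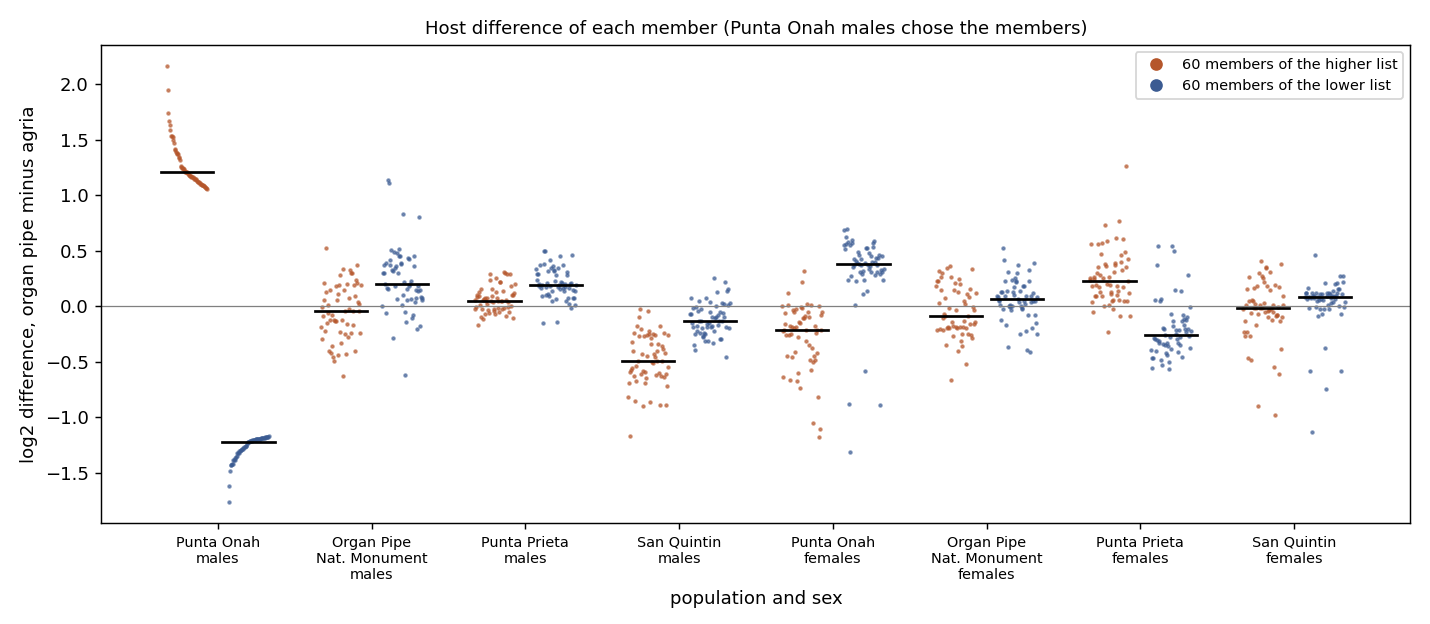
Host difference (organ pipe minus agria, log2, vertical axis) of each member in the males and females of each population (horizontal axis), higher list in orange and lower list in blue, with bars at the medians. Outside Punta Onah males, where the members were chosen, the medians lie between -0.49 and 0.38.

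In males of the other populations the host differences of the members were small. Organ Pipe National Monument males had medians of -0.04 in the higher and 0.20 in the lower list, with 51 of 60 members of the latter positive, against 48.7% of all transcripts. With limma 4 members of the higher list fell, 4 of the lower list rose and 1 fell, against 4.71% of all transcripts that rose and 7.38% that fell. These 9 calls became 0 without replicate 3, 5 without replicate 2 and 4 without the arrays least like their group, up to 12 without other replicates, and 34 in the fit that took in the array SD, where 21.3% of all transcripts were called. FBtr0169215 rose by 1.14 ± 0.29 (SE, adjusted p = 0.00482) and FBtr0175580 by 1.10 ± 0.31 (SE, adjusted p = 0.0112) in limma, both opposite to their direction in Punta Onah males. FBtr0169215 ranged from 8.36 to 10.33 on agria (median 8.57) and from 9.07 to 10.79 on organ pipe (median 10.01). FBtr0170582 fell by 0.63 ± 0.19 (SE, adjusted p = 0.0227) and FBtr0165520 by 0.62 ± 0.18 (SE, adjusted p = 0.0168) in limma.

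Punta Prieta males showed no call in limma, 0 of 120 against 0% of all transcripts, with 6 members of the lower list at an unadjusted p under 0.05 and 46 members called with array weights, which called 15.7% of all transcripts. Medians were 0.05 in the higher and 0.19 in the lower list, where 57 of 60 members were positive, opposite to H. Positive values were also found in 40 of 60 members of the higher list and in 58.5% of all transcripts.

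San Quintin males differed the most among these. All 60 members of the higher list were lower on organ pipe, with a median of -0.49, again opposite to H, whereas 48.4% of all transcripts were higher there. With limma 17 of them fell and 0 rose, against 2.46% and 2.4% of all transcripts (4.86% in either direction). The mean over the list ranged from 9.68 to 10.58 on agria (median 9.81) and from 9.26 to 9.59 on organ pipe (median 9.42), without overlap. FBtr0169310, which had H of 1.74, fell by 1.17 ± 0.23 (SE, adjusted p = 0.00187 in limma), from 8.40 to 9.64 on agria (median 9.08) to 7.55 to 8.53 on organ pipe (median 7.99). FBtr0173220 fell by 0.89 ± 0.23 (SE, adjusted p = 0.0148 in limma), from a median of 11.70 to 10.76. In both members the ranges met only at their edges. The lower list had a median of -0.13 and 0 calls in limma, with 0 members at an unadjusted p under 0.05 and 0 called with array weights. That median had no settled direction, being 0.14 without replicate 3. The 17 calls became 0, 6 and 4 without replicates 1, 2 and 3, and 8 without the arrays least like their group.

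Females of the other populations had few calls. Limma called 0 members in Organ Pipe National Monument females, with 7 at an unadjusted p under 0.05, against 0.00688% of all transcripts called, and 12 called with array weights against 11.3%, with medians of -0.08 and 0.06. In Punta Prieta females limma called 0 members, with 23 at an unadjusted p under 0.05, against 0.0138% of all transcripts called, and 5 called with array weights against 5.25%. The medians were 0.23 and -0.26 there, 54 members of the higher list were positive and 50 of the lower list negative, against 58.7% of all transcripts positive. In all 104 of 120 members had the sign of H in these females, more than in any of the other 6 comparisons of host outside Punta Onah males. Members of a list varied together within groups, as given below, so this count is a description. In San Quintin females 2 members of each list fell, against 4.43% of all transcripts that fell and 4.66% called in all, with medians of -0.02 and 0.08. FBtr0175580 fell by 1.13 ± 0.32 (SE, adjusted p = 0.0238) and FBtr0168163 by 0.98 ± 0.29 (SE, adjusted p = 0.031) in limma. Those 4 calls were 0 without replicate 3 or 4, 2 without replicate 1, 2 after quantile normalization, 1 once all arrays were set to the same median, and 0 with arrays of a shared number kept apart.

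The sign of H was shared by 35 of 120 members in Organ Pipe National Monument males, 43 in Punta Prieta males and 47 in San Quintin males. Among females it was shared by 11 in Punta Onah, 41 in Organ Pipe National Monument and 41 in San Quintin. These sign counts, too, are over members that varied together. Over these 7 comparisons of host, 85 of 120 members (70.8%) were called in none, 27 (22.5%) in 1 and 8 (6.67%) in 2 or 3, against 78.8%, 17.5% and 3.66% of all transcripts for none, 1 and 2 or more.

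Whether the host difference varied among populations was tested with limma on arrays that took no part in H. Among males of the other 3 populations 13 members were called, 10 of the higher and 3 of the lower list, and 12.7% of all 14528 transcripts were called, a share close to that of the members. Without replicate 1, 2 or 3 the count was 0 and without replicate 4 it was 30. FBtr0167349 (adjusted p = 0.00662 in limma) had host differences of -0.06 in Organ Pipe National Monument, 0.16 in Punta Prieta and -0.85 in San Quintin males. FBtr0162407 (adjusted p = 0.00988 in limma) had -0.02, 0.14 and -0.50 in the same order. FBtr0169215 (adjusted p = 0.021) had 1.14, 0.10 and -0.40, and FBtr0167521 (adjusted p = 0.0244 in limma) had 0.83, -0.14 and -0.19. The first pair thus stood out in San Quintin and the second pair in Organ Pipe National Monument.

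Among females of all 4 populations 22 members were called, 13 of the higher and 9 of the lower list, against 8.69% of all transcripts. The count was 8, 13, 0 and 11 without replicates 1, 2, 3 and 4, 67 with array weights (38.9% of all transcripts) and 8 of 62 tested without the dimmest transcripts. FBtr0173220 (adjusted p = 0.000879 in limma) had host differences of -1.11 in Punta Onah, -0.03 in Organ Pipe National Monument, 0.43 in Punta Prieta and 0.38 in San Quintin females. FBtr0169008 (adjusted p = 0.00488 in limma) had -1.17, -0.29, 1.26 and -0.14. FBtr0175580 (adjusted p = 0.00163 in limma) had -1.31, 0.42, 0.54 and -1.13, and FBtr0167521 (adjusted p = 0.0032 in limma) had -0.58, 0.37, 0.54 and -0.75. The last pair had the same sequence of signs over the 4 populations, as did FBtr0169215 with -0.88, 0.52, 0.37 and -0.58.

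Levels of the members were also compared between the Baja California populations and Organ Pipe National Monument, without Punta Onah. In males 47 of 60 members of the lower list fell in Baja California and 3 rose, against 22.8% and 16.6% of all transcripts, with a median of -0.43, while 16 of the higher list fell and 2 rose, with a median of -0.11. The total of 68 became 41 without replicate 3 and 37 of 62 tested without the dimmest transcripts. FBtr0162064 fell by 1.39 ± 0.13 (SE, adjusted p = 1.31e-15 in limma), from 9.47 ± 0.47 (SD, n = 16) to 8.09 ± 0.47 (SD, n = 29), and FBtr0167238 by 0.91 ± 0.10 (SE, adjusted p = 5.32e-12 in limma). FBtr0175580 rose by 0.95 ± 0.19 (SE, adjusted p = 5.14e-05) and FBtr0167521 by 0.58 ± 0.14 (SE, adjusted p = 0.000478) in limma. For FBtr0162064, nonmated Punta Onah males on organ pipe were thus at the level of the Organ Pipe National Monument males.

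In females 11 members of the lower list fell and 3 rose, and 9 of the higher list fell and 5 rose, against 9.18% and 6.05% of all transcripts, with medians of -0.16 and -0.05. The total of 28 was 17 without replicate 3, 55 with array weights (36.2% of all transcripts) and 12 of 62 tested without the dimmest transcripts. FBtr0168778 fell by 1.01 ± 0.13 (SE, adjusted p = 2.06e-09) and FBtr0167238 by 0.76 ± 0.10 (SE, adjusted p = 4.51e-09) in limma. FBtr0164927 rose by 0.63 ± 0.14 (SE, adjusted p = 0.000485) and FBtr0163617 by 0.61 ± 0.12 (SE, adjusted p = 9.63e-05) in limma. With 1 population on one side and 2 on the other, region and population cannot be told apart.

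The lower list moved with a property of the arrays themselves, the SD of all 14528 log2 values on an array. Within groups of the other populations, the mean of the lower list correlated with that SD at r = -0.967 over 45 male and -0.949 over 46 female replicates, as a description of arrays whose values share their normalization. For the higher list the values were -0.098 and -0.299. Member by member in males, 51 of 60 in the lower list but 7 of 60 in the higher list had r under -0.5, with medians of -0.866 and -0.032 against 0.102 over all transcripts. Members of a list also varied together within groups of these males, at a mean pairwise r of 0.609 in the lower and 0.444 in the higher list against 0.014 for transcripts within the limits.

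In Punta Onah males the SD ran from 1.75 to 1.92 on agria and from 1.88 to 1.99 on organ pipe, and in males of the other populations from 1.73 to 1.99. The organ pipe minus agria difference in SD was 0.0978 in Punta Onah males beside the median of -1.22 of the lower list. Among females it was -0.0455 beside a median of 0.38 in Punta Onah, 0.0235 beside -0.26 in Punta Prieta, -0.0175 beside 0.06 in Organ Pipe National Monument and -0.0324 beside 0.08 in San Quintin. Among the other males it was -0.0266 beside 0.19 in Punta Prieta, -0.00106 beside 0.20 in Organ Pipe National Monument and 0.00547 beside -0.13 in San Quintin. The SD difference and the median had opposite signs in all 8 pairs, but not in proportion, as Organ Pipe National Monument males show. In Punta Onah males that sign was set by the choice of members. The medians of San Quintin males and of Organ Pipe National Monument and San Quintin females changed sign in an alternative. In the same order of groups, the medians of the higher list were 1.20, -0.21, 0.23, -0.08, -0.02, 0.05, -0.04 and -0.49. These signs are a description and were not tested. With the SD as a covariate the median host difference of the lower list in Punta Onah males was -0.71 in place of -1.22. In Punta Onah females its median was 0.12 in place of 0.38, and in Punta Prieta females -0.10 in place of -0.26. In the comparison of Baja California with Organ Pipe National Monument males, 11 members of the lower list fell in place of 47. This fit was added after the values had been seen, and what sets the SD of an array was not tested.

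The same fit gave FBtr0166220 a host difference of -0.74 and FBtr0163387 one of -0.73 in Punta Onah males, while FBtr0162064 had 2.36 and FBtr0162000 had 2.21. The median of the higher list was 1.24 in place of 1.20, so the covariate left its host difference in place and took away part of that of the lower list. The same rule applied to that fit chose 37 of the 120 members again, 30 of the higher and 7 of the lower list.

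**Figure D5:**
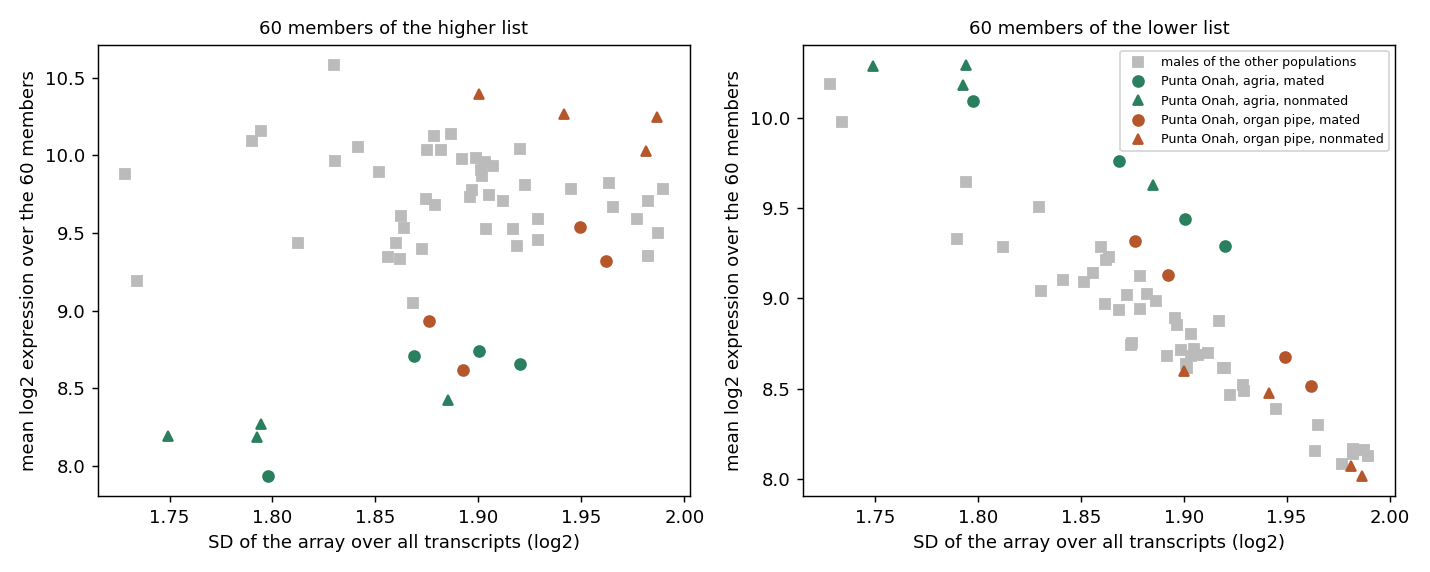
Mean log2 expression over the 60 members of each list (vertical axes) against the SD of the array over all transcripts (log2, horizontal axes) in male arrays, with Punta Onah groups coloured by host and other populations in grey. The lower list falls along the SD in the other populations (r = -0.967 within groups), and the higher list does not (r = -0.098).

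The 9 members of the lower list whose r with the SD was not under -0.5 in males were set apart after their values had been seen, and no test was made on them. Among them were the 4 members with the larger host difference in mated males, FBtr0175580, FBtr0169215, FBtr0167521 and FBtr0163173. In Organ Pipe National Monument males all 5 calls of the lower list fell among these 9 and 0 among the other 51, and in San Quintin females both did. In Punta Prieta females 49 of the other 51 and 1 of these 9 were lower on organ pipe, with medians of -0.29 and 0.28. In the host by mating comparison of Punta Onah males 3 of the 9 and 28 of the 51 were called. Their median host difference in Punta Onah males was -1.21, beside -1.22 for the other 51. The rule placed every member of this list between -1.76 and -1.17, so nothing is read from that closeness.

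Which transcripts are members depended on mating status. With H taken from mated males alone, 30 of the 120 were chosen again, 20 of the higher and 10 of the lower list, and with H from nonmated males alone 88 were, 46 and 42. Transcripts chosen on mated males had median host differences in nonmated males of 1.17 for the higher end, 56 of 60 with the same sign, and -0.74 for the lower end, 50 of 60. Those chosen on nonmated males had medians of 0.47 (54 of 60) and -0.54 (59 of 60) in mated males. Over all 14528 transcripts the median was -0.09 in nonmated males, with 6281 positive and 8247 negative. In mated males it was 0.01, with 7453 positive and 7075 negative. Both ends thus kept their direction in most of their transcripts. The ranking and the value used different arrays, but the limits on population and sex differences used all arrays. These counts are therefore a description.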

How the data were processed

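Total RNA of flies from 32 groups was hybridised to single-colour arrays. The authors deposited log2 expression values that they made with RMA, which corrects background, normalizes arrays and summarises probes, per the submitters' processing notes, which give no version. That the scale is log2 was read from the range of the values. Scanner files, slides and scan dates were not used here. Precision is limited by how many arrays a group has. Separate cultures behind the replicates are not named in the labels, so the p-values cover the spread among these samples alone, and that spread may be technical. No 2 arrays were identical (0 such pairs).

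A model with 1 mean per group was fitted to all 14528 transcripts with limma 3.58.1 (lmFit, contrasts.fit, eBayes) in R 4.3.3, with 91 residual and 4.67 prior degrees of freedom. Arrays sharing a number were averaged first. Two-sided p-values were adjusted over all transcripts by Benjamini-Hochberg, and the threshold for a call was 0.05. Members and lists were chosen with earlier results of these data known. H follows the rule stated in the results, and arrays were averaged directly for it. Named members are the 2 highest and 2 lowest by H, the 2 largest called differences of each sign per comparison, and for tests of variation among populations the 2 smallest p-values per list. Identifiers matched 0 of the 15130 genes of RefSeq assembly ASM1815372v1, so the lists for cytochrome P450, glutathione S-transferase, other detoxification, receptor, heat shock, egg, male tract, protease and ribosomal genes were not run.

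In data simulated on this design, with 200 of 14528 transcripts changed, host in San Quintin males recovered 40%, 98%, 100% and 100% of changes of 0.5, 1, 1.5 and 2, with 8 false calls, and host by mating in Punta Onah males 4%, 54%, 84% and 94%, with 2 false calls. The simulated noise was independent between transcripts, whereas the members varied together within groups. These rates therefore may not hold for the members. Replicate numbers were not used as pairs: deviations of same-numbered groups that differ in host correlated at a mean r of -0.045 over 59 pairs, against 0.017 over 178 pairs of other numbers. Alternatives were quantile normalization, a shift to the same median, removal of the dimmest 25% of transcripts, shared-number arrays kept apart, the replicate number as a block, array weights, and leaving out the 2 male arrays between the sexes or each replicate number. A covariate for the SD of each array and leaving out 4 arrays least like their group were added after the values had been seen.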

Additional observations from a re-analysis of the deposited data

Results flagged for a closer look

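In groups of 4 replicates, 1 replicate stood apart from the other 3 by Dixon's criterion in 6 of 70 tests, 54 on the list means of 27 groups and 16 on single members in the Punta Onah male groups, so the same arrays were tested several times. Chance flags about 1 in 20. For the mean of the higher list these were replicate 1 of mated Punta Onah males on agria at 7.94 (others 8.65 to 8.74), replicate 4 of nonmated Organ Pipe National Monument males on organ pipe at 9.40 (others 10.03 to 10.14), replicate 2 of nonmated Punta Prieta females on agria at 9.92 (others 9.36 to 9.42) and replicate 4 of nonmated San Quintin females on agria at 9.98 (others 9.71 to 9.74). For the mean of the lower list it was replicate 4 of nonmated Punta Onah males on agria at 9.63 (others 10.18 to 10.29). For FBtr0162064 it was replicate 2 of nonmated Punta Onah males on organ pipe at 9.67 (others 9.40 to 9.43).

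Among the differences between groups, 71 members had a call for host by mating in Punta Onah males, against 8.82% of all transcripts. The arrays are those that chose the members, so this is a description only. The adjusted p-values in limma were 1.51e-10 for FBtr0167238, 2.09e-08 for FBtr0162000, 0.000241 for FBtr0162623 and 0.0221 for FBtr0172754. The host difference varied among the other populations in males for 13 members, against 12.7% of all transcripts, a count that was 0 without replicate 1, 2 or 3, with adjusted p-values in limma of 0.00662 for FBtr0167349, 0.00988 for FBtr0162407, 0.021 for FBtr0169215 and 0.0244 for FBtr0167521. Among females it varied over the 4 populations for 22 members, against 8.69% of all transcripts, a count that was 0 without replicate 3, with adjusted p-values in limma of 0.000879 for FBtr0173220, 0.00488 for FBtr0169008, 0.00163 for FBtr0175580 and 0.0032 for FBtr0167521.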

How the results depend on the processing

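A change of sign was looked for in the differences of named members and in the list medians of Punta Onah males, and none occurred. Some list medians in other groups did change sign, as given below. Among values for counts and medians 61 moved by over 1.5 times or beyond the replicate spread and 259 did not. The cause was not tested except where fewer transcripts or samples entered. Of 39 named results with a test, 16 kept their call in every one of the 13 settings that tested them and 23 lost it in at least 1. Named members among the dimmest transcripts were not tested in the setting that left those transcripts out.

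Leaving out each replicate number in turn, host counts ranged from 0 to 9 in Punta Onah females, 0 to 12 in Organ Pipe National Monument males, 0 to 15 in San Quintin males and 0 to 3 in San Quintin females. Host by mating in Punta Onah males ranged from 24 to 80. Mating ranged from 9 to 24 in Punta Onah males, 1 to 2 in Punta Onah females and 1 to 3 in females of the other populations. Region ranged from 41 to 61 in males and 17 to 25 in females, and variation among populations from 0 to 30 in males and 0 to 13 in females.

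Without the dimmest transcripts, 62 members were tested, and the counts were 6 for host in Punta Onah females, 35 for host by mating and 13 for mating in Punta Onah males, 37 and 12 for region in males and females, and 8 for variation among populations in females. Array weights, whose iteration stopped before its tolerance, gave host counts of 77 in Punta Onah females, 46 in Punta Prieta males, 12 in females of Organ Pipe National Monument, 5 in those of Punta Prieta and 12 in those of San Quintin. They gave 5, 7 and 14 for mating in Punta Onah females and in other males and females, 55 for region in females, and 33 and 67 for variation in males and females. The host count in San Quintin females was 2 after quantile normalization, 1 with all arrays at the same median and 0 with shared-number arrays apart. Where the share of all transcripts called with array weights is given above, that share rose too. The counts in this paragraph show only their dependence on the setting and are not results about the members.

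With array SD as a covariate the counts were 34 for host in Organ Pipe National Monument males, 7 in San Quintin females, 37 for mating in Punta Onah males, 3 and 5 in other males and females, 38 for region and 37 for variation in males, and the median H of the lower list was -0.71. FBtr0166220 and FBtr0163387 moved to -0.74 and -0.73. Without the arrays least like their group, host counts were 4 in Organ Pipe National Monument males and 8 in San Quintin males, and there was 1 call for mating and 6 for variation in males of the other populations. These counts, too, are not set here against the share of all transcripts and show only their dependence on the setting.

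The replicate number as a block, which does not pair these samples, changed no count by over 1.5 times: it gave 12 members for host in Punta Onah females against 14, 21 in San Quintin males against 17, and 70 against 71 for host by mating. Of the 120 members the rule chose 85 again after quantile normalization, 111 after a shift to the same median, 119 with shared-number arrays averaged first and 83 to 93 without each replicate number. A total of 5 list medians of the host difference changed sign: the lower list in San Quintin males (-0.13, and 0.14 without replicate 3), the higher list in Organ Pipe National Monument males (-0.04, and 0.13 without replicate 4), the lower list in females there (0.06, and down to -0.05 with the covariate), and both lists in San Quintin females (-0.02, and up to 0.07 without replicate 3; 0.08, and down to -0.15 with the covariate).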
